A study of Danio rerio with 23 samples.

Results

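The nuclear genes that encode subunits of the respiratory chain were examined in bulk RNA-seq libraries of zebrafish retina, after light-induced retinal damage (LIRD) and without it (CTRL). Members were the genes of the count table whose symbol starts with nduf, with sdh followed by a, b, c or d, with uqcr, with atp5 or with cox4 to cox8. Assembly factors of the nduf series, 8 genes, were left out. The rule took 100 of 25281 genes, and 4 of these encode succinate dehydrogenase assembly factors (sdhaf1, SDHAF2, SDHAF3 and SDHAF4) rather than subunits. The other 96 are called the subunit genes: 42 of complex I, 5 of complex II, 8 of complex III, 21 of complex IV and 20 of complex V. Complexes were assigned by prefix. The inhibitor genes atp5if1a and atp5if1b and the gene COX7A2L are therefore counted among the 96, and the NDUFA4 family with complex I. Symbols are spelled as in the symbol table used, which gives many zebrafish genes in capitals, and where several genes carry 1 symbol the end of the Ensembl identifier is given. All 100 members passed the filter on low counts.

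LIRD retinae came from fish exposed to strong white light with no drug given, and CTRL retinae from fish described as kept under normal lighting. By the study's methods, however, embryos were incubated in the dark and went back to it after the light. The study kept wild-type TU fish and a Tg(fli:gal4;UAS:mCherry) reporter line, and which of them gave the libraries is not stated in the sources. By the study's methods these were pigmented larvae of 4 days, lit with 50000 lux for 3.5 h and left to recover for 48 h, with 50 retinae in a pool, whereas the sample labels describe adult fish, 15000 lux for 24 h and dissection straight after the light, and name no pool. The age, dose, delay and lighting of CTRL are therefore not settled by the sources, and the comparison is reported as LIRD against CTRL alone. The table holds 8 LIRD and 9 CTRL libraries, labelled as biological replicates, and 6 further samples of the labels were not analysed here. By the study's methods, outlying samples that did not group with their replicates were removed. Whether the 6 samples were among those removed is not stated. The spread within a group is therefore that of the libraries kept.

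Complexes I to IV of the inner mitochondrial membrane pass electrons from NADH and succinate to oxygen, and all but complex II pump protons as they do so. Complex V, the ATP synthase, uses the proton gradient to make ATP. Most subunits are encoded in the nucleus and imported, while a small set of core subunits is encoded by mitochondrial DNA. Photoreceptors pack mitochondria into their inner segments and are among the heaviest users of oxygen in the body.

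Total counts were between 97506021 and 150347385 in LIRD libraries and between 70932504 and 144932681 in CTRL libraries, and the member with the fewest reads, ndufa9b, had at least 31 counts in every library. Transcripts of rod and cone phototransduction were abundant in every library, with GNAT1, the rod transducin, at 17298 counts or more and GNAT2, the cone transducin, at 181837 counts or more, in keeping with the tissue label. The library names carry an index. LIRD 1, LIRD 2, CTRL 1 and CTRL 2 have indices 7 to 10 and the other 13 libraries have indices 11 to 29, and the labels do not say what the index stands for; these sets are called library series 1 and 2. LIRD 5 with LIRD 11 and CTRL 3 with CTRL 11 were the most alike pairs of libraries, with a variance between them of 1.84 and 3.71 times counting noise against 11.3 times or more for every other pair. They were kept as separate libraries, since both pairs differed by more than counting noise and the labels give them as separate replicates. Whether the libraries of such a pair came from separate retinae cannot be told from this. In edgeR's quasi-likelihood test over 22503 genes, 9 genes (0.04%) passed an adjusted p (FDR) under 0.05 with a change of more than 1.5-fold, 8 of them higher in LIRD and 1 lower.

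No subunit gene differed between LIRD and CTRL past this threshold, where the background was 0.04% of all genes tested. The lowest adjusted p of edgeR's quasi-likelihood test among the members was 0.29, for COX4I2, and DESeq2, which called 78 of 24738 genes (0.315%), also called none. At an unadjusted p under 0.05 in the same test, 1 subunit gene was higher in LIRD (background 4.9%) and 0 were lower (background 2.74%), where 7.64% of all genes had such a p in either direction. The log2 fold change was above 0 for 92 of 96 subunit genes, against 53.8% of all genes tested, with a median of 0.29 against 0.02 over all genes. The subunit genes moved together across libraries, so this count does not stand for 96 separate observations. It also depended on the libraries used. In library series 2 alone 56 of 96 were above 0 with a median of 0.01, and in library series 1 alone 94 of 96 with a median of 0.87. The 4 subunit genes below 0 were COX5B (ENSDARG00000113254) at -0.09, ndufa4l2b at -0.06, ndufv3 at -0.02 and NDUFS1 at -0.002. In bulk retina, fewer cells of a type and less RNA per cell cannot be told apart.

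For these genes the spread among LIRD libraries was wider than the distance between the groups. The summed level of the 96 subunit genes, in CPM (read counts scaled to 1 common library size with edgeR's TMM factors), had a lowest value of 6108, a median of 9938 and a highest of 16169 in LIRD, against 7041, 8793 and 12965 in CTRL. The LIRD libraries fell on both sides of CTRL. LIRD 1, LIRD 4, LIRD 2 and LIRD 9 held 16169, 15412, 13034 and 12623 CPM, while LIRD 5, LIRD 11, LIRD 10 and LIRD 6 held 7253, 7223, 6966 and 6108 CPM, with LIRD 5 and LIRD 11 being the pair that was most alike over all genes. In CTRL the highest sum was that of CTRL 10, at 12965 CPM, followed by CTRL 8 at 11317 CPM, and the other 7 libraries lay between 7041 and 9707 CPM. No LIRD library was in the stretch between 7253 and 12623 CPM, where 6 of the CTRL libraries lay. As a share of all counts, before any scaling, the subunit genes made up 0.711% to 1.36% in LIRD and 0.766% to 1.18% in CTRL.

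**Figure D1:**
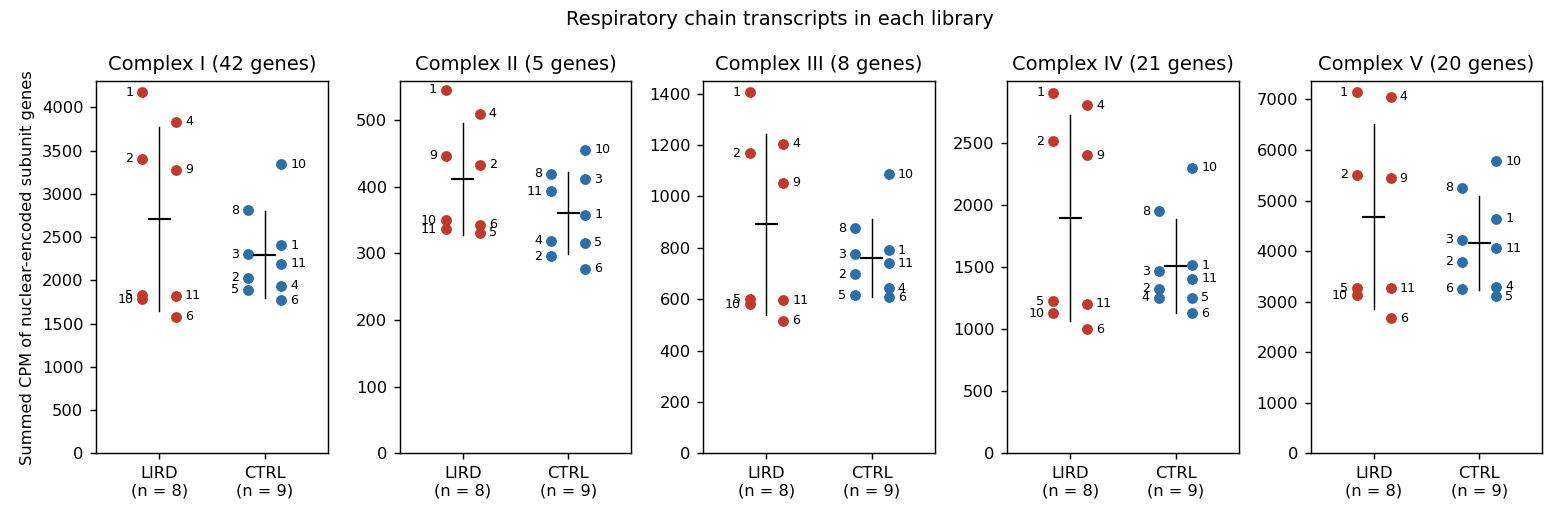
Summed CPM of the nuclear-encoded subunit genes of each complex (y axis, from 0) in LIRD (left, red, n = 8) and CTRL (right, blue, n = 9), with points numbered by replicate, a short horizontal line at the mean and a vertical line for 1 SD. In every complex LIRD 1, 2, 4 and 9 lie apart from LIRD 5, 6, 10 and 11, and CTRL 10 is the highest CTRL library.

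The same libraries were high or low for almost every gene. LIRD 1 was above all CTRL libraries for 86 of 96 subunit genes, LIRD 4 for 71, LIRD 2 for 55 and LIRD 9 for 34, whereas LIRD 5, 6, 10 and 11 were above all CTRL libraries for 0. In the other direction, LIRD 6 was below all CTRL libraries for 80 of 96 subunit genes, LIRD 10 for 40, LIRD 11 for 33 and LIRD 5 for 28. The highest of all 17 values was that of LIRD 1 for 57 genes and of LIRD 4 for 30, and the lowest was that of LIRD 6 for 77. These counts by library were not made over all genes, so they are not read as particular to the subunit genes. A wider spread in LIRD was common: the SD of log2 CPM was larger in LIRD for 95.8% of subunit genes and 84.9% of all genes tested. The LIRD range enclosed the whole CTRL range for 82 of 96 subunit genes (85.4%), against 49.5% of all genes tested, and the groups were apart for 0 of 96, against 0.0711% of all genes. The SD of log2 CPM had a median of 0.69 in LIRD and 0.33 in CTRL over the subunit genes, against 0.36 in LIRD and 0.21 in CTRL over all genes. A first principal component held 92.5% of the variance of the subunit genes across libraries, against 40.1% for all genes, and the next component held 2.25%. These shares describe genes that are measured in the same libraries and are not independent of each other.

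**Figure D2:**
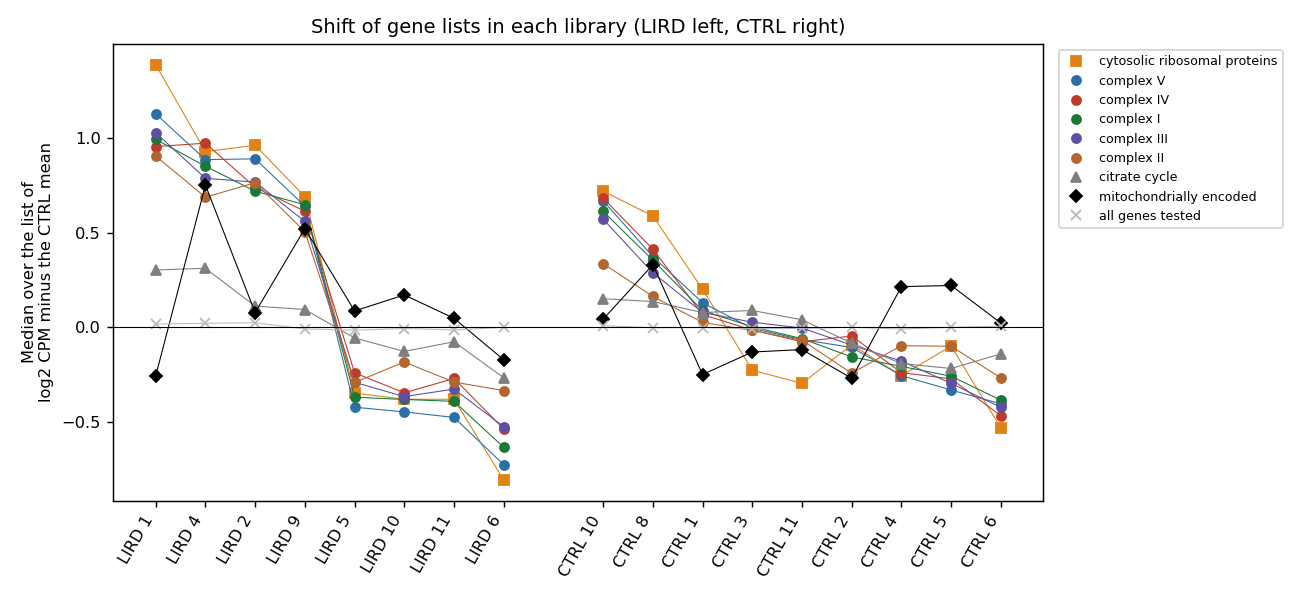
Median over each gene list of log2 CPM minus the CTRL mean (y axis) in each library (x axis, LIRD left and CTRL right). The subunit genes of all 5 complexes run with the cytosolic ribosomal protein genes in LIRD and less closely in CTRL. In CTRL 11, for example, the ribosomal genes are at -0.30 and the subunit genes at -0.06. The mitochondrially encoded genes follow only in part, and the median over all genes tested stays near 0.

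Complex I, which oxidises NADH, had a summed level of 1578, 2553 and 4175 CPM (lowest, median, highest) in LIRD and 1770, 2193 and 3344 CPM in CTRL. Its 42 genes had a median log2 fold change of 0.27, 39 of them above 0, and 0 passed an unadjusted p of 0.05. Over all genes tested 53.8% were above 0, and 7.64% had such a p in either direction in edgeR's test. Among the core subunits, which carry the flavin and the iron-sulfur clusters, NDUFS1 had 139.8, 152.5 and 213.2 CPM in LIRD and 130.7, 168.0 and 189.9 CPM in CTRL. Its log2 fold change was -0.002 (SE 0.10, edgeR adjusted p = 0.994), and LIRD 4 was the only LIRD library above all of CTRL. NDUFV1, the subunit that binds NADH and the flavin, ranged over 150.4, 167.4 and 231.1 CPM in LIRD and 129.4, 166.4 and 194.3 CPM in CTRL, with nearly equal medians and a log2 fold change of 0.19 (SE 0.11, edgeR adjusted p = 0.697).

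NDUFS7, the core subunit with the last iron-sulfur cluster before quinone, showed the wider pattern. LIRD libraries held 220.4 (LIRD 1), 162.5 (LIRD 2), 158.7 (LIRD 4), 152.9 (LIRD 9), 70.28 (LIRD 5), 68.99 (LIRD 11), 67.98 (LIRD 10) and 58.3 CPM (LIRD 6), against a lowest of 65.08, a median of 79.53 and a highest of 136.7 CPM in CTRL. Thus 4 LIRD libraries were above all of CTRL and the other 4 below the CTRL median. The log2 fold change was 0.43 (SE 0.25, 95% interval -0.10 to 0.96), the largest of complex I, with an edgeR adjusted p of 0.697. NDUFA8, an accessory subunit, had 37.12, 61.19 and 86.33 CPM in LIRD and 42.55, 46.95 and 69.01 CPM in CTRL, again with 4 LIRD libraries above all of CTRL and a log2 fold change of 0.27 (edgeR adjusted p = 0.697). Within complex I the 7 core genes had a median log2 fold change of 0.19 and the 31 accessory genes one of 0.29. The NDUFA4 family, here 4 genes counted with complex I by prefix although the NDUFA4 protein is now placed in complex IV, had a median of 0.16.

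Complex II, succinate dehydrogenase, links the citrate cycle to the chain and is the only complex made of nuclear-encoded subunits alone. Its 5 genes summed to 331, 392 and 545 CPM in LIRD and 277, 358 and 455 CPM in CTRL. SDHA, the flavoprotein that oxidises succinate, was the steadiest of the subunit genes: it had 144.1, 178.3 and 202.8 CPM in LIRD and 130.3, 163.3 and 209.4 CPM in CTRL, so the CTRL range enclosed that of LIRD, and its log2 fold change was 0.07 (SE 0.10, edgeR adjusted p = 0.807). SDHB, the iron-sulfur subunit, had 75.99, 89.67 and 153.1 CPM in LIRD and 61.64, 93.17 and 103.2 CPM in CTRL, with LIRD 1 and LIRD 4 above all of CTRL and a log2 fold change of 0.23 (edgeR adjusted p = 0.697). The membrane anchors spread further. SDHC held 128.6, 106.2, 105.1 and 93.49 CPM in LIRD 1, 4, 2 and 9 and 33.8 to 41.88 CPM in the other 4 LIRD libraries, against 33.14 to 95.4 CPM in CTRL.

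The second SDHD gene (ENSDARG00000055712), a low-count anchor gene, had 0.6781, 1.312 and 2.431 CPM in LIRD and 0.8462, 0.9859 and 1.22 CPM in CTRL. Here 4 LIRD libraries lay above the whole CTRL range and 3 below it, and the log2 fold change was 0.47 (SE 0.24, edgeR adjusted p = 0.681). Of the 4 assembly factors, sdhaf1, which serves the iron-sulfur subunit, had 8.172, 11.55 and 22.97 CPM in LIRD and 6.81, 9.498 and 12.01 CPM in CTRL. Its log2 fold change of 0.42 (SE 0.19) had an unadjusted p of 0.0413 and an adjusted p of 0.632 in edgeR's test. SDHAF4, which serves the flavoprotein, had 4.674, 7.607 and 13.95 CPM in LIRD and 4.785, 5.986 and 9.42 CPM in CTRL, which gave a log2 fold change of 0.42 (edgeR adjusted p = 0.685). SDHAF2, needed to attach the flavin, had the narrowest range of the 100 members, 16.91 to 21.18 CPM in LIRD and 14.44 to 21.81 CPM in CTRL.

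Complex III passes electrons from quinol to cytochrome c. Its 8 genes summed to 517, 828 and 1405 CPM in LIRD and 608, 741 and 1087 CPM in CTRL. Their median log2 fold change was 0.27 and all 8 were above 0, against 53.8% of all genes tested. UQCRFS1, the Rieske iron-sulfur protein, had 99.54, 136.1 and 200.9 CPM in LIRD and 111.8, 144.9 and 176.9 CPM in CTRL, with 2 LIRD libraries above and 2 below all of CTRL, and a log2 fold change of 0.05 (SE 0.15, edgeR adjusted p = 0.916). UQCRC1, a core protein, had 142.2, 203.3 and 275.7 CPM in LIRD and 152.8, 184.7 and 224.1 CPM in CTRL, which gave a log2 fold change of 0.19 (edgeR adjusted p = 0.702). The other core protein is encoded by uqcrc2a and UQCRC2. Of these, uqcrc2a had 65.95, 96.24 and 179.8 CPM in LIRD and 66.76, 89.14 and 120.8 CPM in CTRL, and its log2 fold change was 0.25 (edgeR adjusted p = 0.702). UQCRC2 spanned 67.99 to 165.3 CPM in LIRD and 74.7 to 125.7 CPM in CTRL, with a log2 fold change of 0.18 (edgeR adjusted p = 0.72). For each of these genes LIRD values again lay on both sides of the CTRL range. The small subunits ranged more widely. UQCRB had 50.89, 93.13 and 154.0 CPM in LIRD and 55.33, 72.1 and 122.1 CPM in CTRL, and UQCRQ, whose log2 fold change of 0.43 was the largest of the complex, spanned 22.57 to 149.7 CPM in LIRD and 28.54 to 96.77 CPM in CTRL.

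Complex IV, cytochrome c oxidase, hands the electrons to oxygen, and its members here lie outside the mitochondrially encoded core. Its 21 genes summed to 1000, 1814 and 2904 CPM in LIRD and 1127, 1406 and 2301 CPM in CTRL. Their median log2 fold change was 0.31 and 20 were above 0, against 53.8% of all genes tested. COX4I2 (ENSDARG00000022509), which in mammals encodes the hypoxia-responsive isoform of subunit 4, was the member with the smallest p. It had 248.1 (LIRD 2), 226.6 (LIRD 1), 216.6 (LIRD 9), 180.5 (LIRD 4), 146.9 (LIRD 5), 145.3 (LIRD 11), 134.7 (LIRD 6) and 116.9 CPM (LIRD 10), against 87.38, 110.6 and 160.4 CPM (lowest, median, highest) in CTRL. All 8 LIRD libraries were above the CTRL median, 4 of them above every CTRL library, and no LIRD library fell below the CTRL range. The means were 176.9 ± 48.4 CPM in LIRD and 118.7 ± 23.5 CPM in CTRL (SD), and the log2 fold change was 0.58 (SE 0.16, 95% interval 0.25 to 0.90), with an unadjusted p of 0.00149 and an adjusted p of 0.29 in edgeR's quasi-likelihood test. Over the alternatives tried the adjusted p lay between 0.01, in library series 1 alone, and 1.0, in library series 2 alone, and was 0.064 with DESeq2. With each of the 2 most alike pairs of libraries added up, the adjusted p of COX4I2 was 0.53 in edgeR's test.

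COX4I1, the general isoform of the same subunit, had 138.4, 251.4 and 431.5 CPM in LIRD and 181.9, 203.5 and 310.0 CPM in CTRL. LIRD 1, 2, 4 and 9 were above all CTRL libraries and LIRD 6, 10 and 11 below all of them, and the log2 fold change was 0.35 (SE 0.22, edgeR adjusted p = 0.697). The remaining COX4 gene, cox4i1l, ran from 0.7966 to 4.611 CPM in LIRD and from 1.111 to 3.611 CPM in CTRL. Among the other subunits, cox5aa had 76.72, 148.4 and 244.8 CPM in LIRD and 89.73, 103.6 and 178.8 CPM in CTRL, which gave a log2 fold change of 0.41 (edgeR adjusted p = 0.697). COX7A2 (ENSDARG00000110700) had 3.968, 8.522 and 13.83 CPM in LIRD and 4.375, 6.254 and 11.57 CPM in CTRL, which gave a log2 fold change of 0.43 (edgeR adjusted p = 0.697). The gene COX5B (ENSDARG00000113254) went against the rest, at 13.39, 14.95 and 17.83 CPM in LIRD and 11.66, 16.99 and 19.42 CPM in CTRL, so that its LIRD range lay within its CTRL range.

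**Figure D3:**
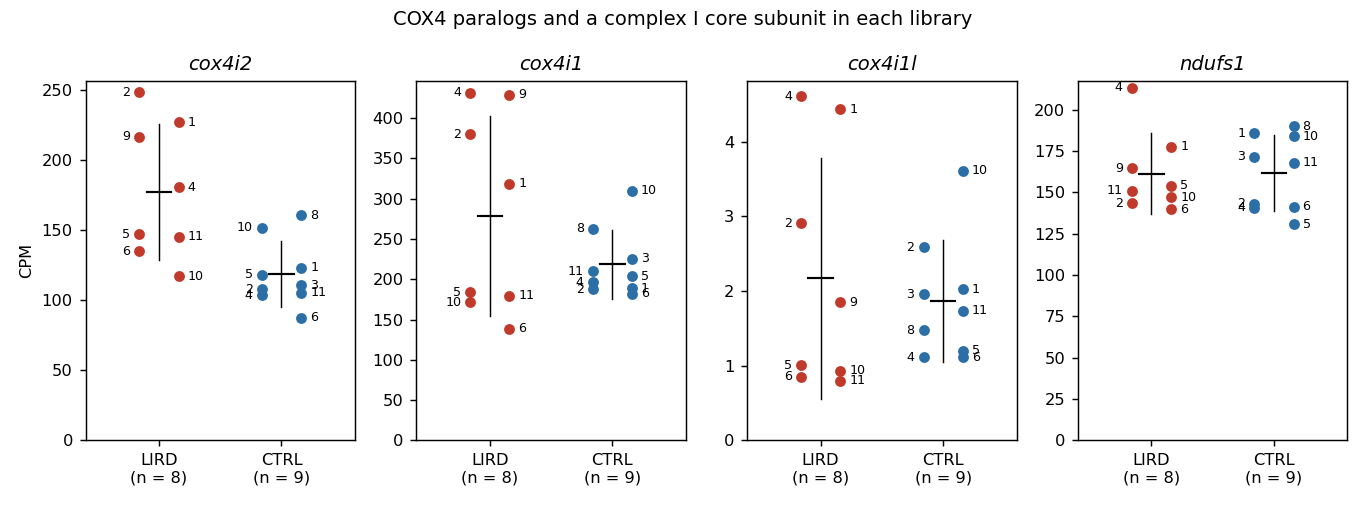
CPM (y axis, from 0) of the 3 COX4 genes and of NDUFS1 in LIRD (left, red, n = 8) and CTRL (right, blue, n = 9), with points numbered by replicate, a short horizontal line at the mean and a vertical line for 1 SD. All LIRD values of COX4I2 are above the CTRL median of 110.6 CPM, COX4I1 lies on both sides of CTRL, and NDUFS1 has closely matching means of 161.4 CPM in LIRD and 161.6 CPM in CTRL.

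Because COX4I2 and COX4I1 encode alternative forms of 1 subunit, their ratio within each library was compared, a measure that library scaling cannot change. The log2 ratio of COX4I1 over COX4I2 averaged 0.57 ± 0.39 in LIRD and 0.88 ± 0.16 in CTRL (SD), a difference of -0.31. LIRD values ran from 0.04 to 1.26 and CTRL values from 0.61 to 1.06, and 6 LIRD libraries were below the CTRL median. The two-sided exact permutation p was 0.044, and 0.494 after Benjamini-Hochberg adjustment over the 27 pairs of paralogous subunit genes tested. The ratio of cox4i1l over COX4I2 differed by -0.58 and that of COX5A over cox5aa by -0.16, with exact permutation p of 0.0914 and 0.0587 and an adjusted p of 0.494 for both. No pair had an adjusted p under 0.05, so no switch between paralogs was detected with these libraries. Where paralogs are near-identical, reads may have been split between them by the counting, which was not tested.

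Complex V, the ATP synthase, had a summed level of 2671, 4354 and 7140 CPM in LIRD and 3103, 4060 and 5779 CPM in CTRL. Its median log2 fold change was 0.31 and all 20 genes were above 0, against 53.8% of all genes tested. The 2 lowest log2 fold changes of the complex were those of the alpha and beta subunits of the F1 head. Low values were not particular to the head: ATP5MC3 and ATP5PB, of the stalk and membrane part, had 0.08 and 0.09. In the head, atp5f1e had 0.32. ATP5F1B, the catalytic beta subunit, had 823.8, 1042 and 1822 CPM in LIRD and 853.8, 1187 and 1423 CPM in CTRL, so the LIRD median was the lower one, and its log2 fold change was 0.02 (SE 0.16, edgeR adjusted p = 0.96). ATP5F1A, the alpha subunit, had 611.5, 767.5 and 1376 CPM in LIRD and 616.4, 893.5 and 1079 CPM in CTRL, which gave a log2 fold change of 0.03 (edgeR adjusted p = 0.95). Both had their highest value in LIRD 4 and their lowest in LIRD 6. The gamma subunit of the rotor, ATP5F1C, had 123.0, 247.5 and 463.6 CPM in LIRD and 160.1, 200.9 and 322.9 CPM in CTRL, with 4 LIRD libraries above all of CTRL and 4 below all of it, and a log2 fold change of 0.36 (SE 0.26, edgeR adjusted p = 0.697).

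In the peripheral stalk, ATP5PD had 80.44, 176.6 and 334.9 CPM in LIRD and 102.2, 137.3 and 251.7 CPM in CTRL, which gave a log2 fold change of 0.40 (edgeR adjusted p = 0.697). ATP5PF, of the same stalk, had 43.38, 94.02 and 185.9 CPM in LIRD and 56.49, 71.76 and 136.7 CPM in CTRL, which gave a log2 fold change of 0.37 (edgeR adjusted p = 0.702). For both genes 3 LIRD libraries were above all of CTRL, and 2 (ATP5PD) or 4 (ATP5PF) were below all of it. The widest range of all members was that of atp5md, a small subunit of the membrane part. It had 125.3, 87.69, 81.5 and 64.3 CPM in LIRD 1, 2, 4 and 9 and 16.71 to 21.72 CPM in the other 4 LIRD libraries, against 19.18, 32.97 and 101.3 CPM in CTRL, a span of 7.5-fold across the 17 libraries. The 2 inhibitor genes, atp5if1a and atp5if1b, whose product stops the enzyme from running backwards, had log2 fold changes of 0.19 and 0.10.

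**Figure D4:**
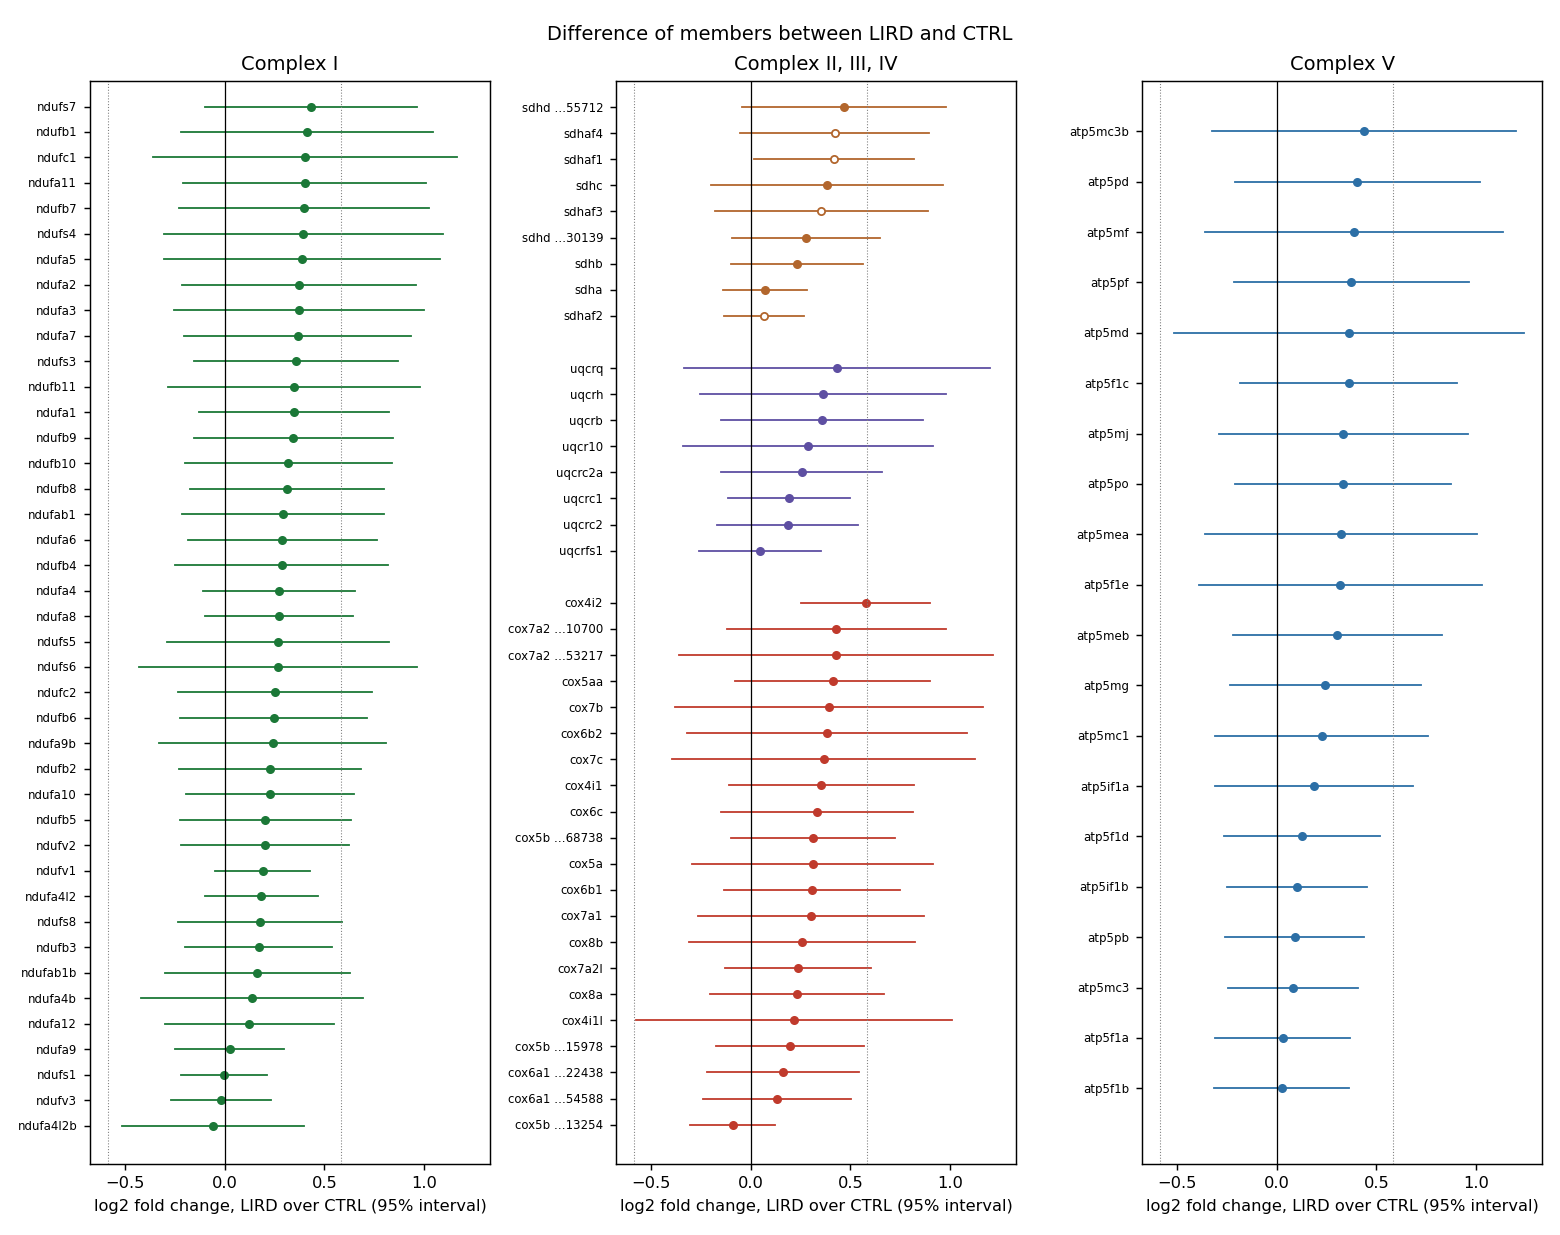
Log2 fold change of LIRD over CTRL (x axis) with its 95% interval for the members, by complex, sorted within a complex, with open circles for the 4 assembly factors and dotted lines at the threshold of 1.5-fold on the log2 scale. Most points lie above 0, nearly all intervals include 0, and COX4I2 is the subunit gene whose interval of 0.25 to 0.90 does not.

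The range of a gene across libraries differed with its place in the complex. The highest over the lowest CPM of the 17 libraries had a median of 3.19 over the subunit genes, against 2.11 over all genes tested. In complex I the median was 2.65 for the core genes and 3.28 for the accessory genes, and in complex II 2.05 for the catalytic genes and 3.59 for the anchors. Complex III had 2.22 for the core and Rieske genes and 4.18 for the small subunits. In complex IV the ratio was 2.98 for the COX4 and COX5 genes and 3.65 for COX6 to COX8, and in complex V 2.66 for the F1 head and 4.14 for the stalk and membrane part. In complexes I, II, III and V the catalytic or core genes thus had the lowest median of their complex, although single genes overlapped between classes. This order is a description of these libraries, with no test. The narrowest subunit genes were SDHA at 1.61-fold, NDUFS1 at 1.63-fold, COX5B (ENSDARG00000113254) at 1.67-fold, ndufv3 at 1.73-fold and NDUFV1 at 1.79-fold. The widest after atp5md were atp5mc3b, of the c ring, at 6.99-fold, COX7A2 (ENSDARG00000053217) at 6.88-fold and UQCRQ at 6.63-fold, all of them highest in LIRD 1 and lowest in LIRD 6. These genes were picked for their range after the values were seen.

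**Figure D5:**
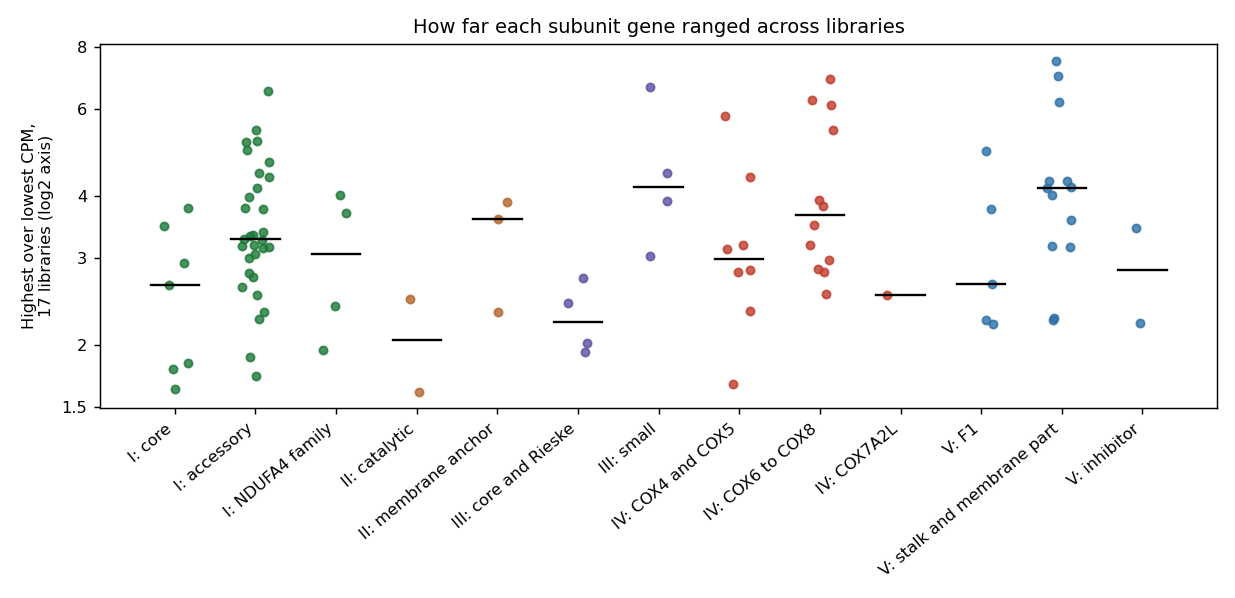
Highest over lowest CPM among the 17 libraries (y axis, log2 scale) for each subunit gene, by complex and place in the complex (x axis), with a line at the median of each class. The catalytic and core classes lie lower than the small, stalk and membrane classes, from a median of 2.05 for the catalytic genes of complex II to 4.18 for the small subunits of complex III.

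The 13 mitochondrially encoded subunit genes followed the nuclear ones library by library only in part. Their median log2 CPM relative to the CTRL mean was -0.26 in LIRD 1 and 0.75 in LIRD 4, while the nuclear subunit genes were at 1.00 in LIRD 1 and 0.86 in LIRD 4. Their summed level was 26920, 33290 and 55269 CPM in LIRD and 23765, 28317 and 36830 CPM in CTRL. By this sum LIRD 1, 2, 4 and 9 held 34852, 36345, 55269 and 47954 CPM. LIRD 5, 6, 10 and 11 held 31727, 26920, 31311 and 31418 CPM, so by the sum the same LIRD libraries were the higher ones. LIRD 1 and LIRD 2 were however below the highest CTRL sum of 36830 CPM. By the median over the 13 genes LIRD 1 was the lowest LIRD library. LIRD 2, at 0.08, was below LIRD 5 at 0.09 and LIRD 10 at 0.17. All 13 had a log2 fold change above 0, against 53.8% of all genes tested, with a median of 0.15. Of the 13 genes, 2 had an unadjusted p under 0.05 in edgeR's test, both higher in LIRD, where 4.9% of all genes were. MT-CO1, the catalytic subunit of complex IV, had 10010, 11220 and 14910 CPM in LIRD and 7361, 9414 and 10420 CPM in CTRL, with all 8 LIRD libraries above the CTRL median and 6 above all of CTRL. Its log2 fold change was 0.37 (SE 0.13) with an adjusted p of 0.49 in edgeR's test. MT-CYB, the cytochrome b of complex III, had 2804, 3656 and 8014 CPM in LIRD and 2528, 2931 and 4246 CPM in CTRL, which gave a log2 fold change of 0.49 (edgeR adjusted p = 0.602).

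Other genes of mitochondrial energy supply were counted from pathway lists, none of which had a gene past the threshold, where 0.04% of all genes were. Over all genes tested 53.8% had a log2 fold change above 0. Of 54 assembly factors 49 had a log2 fold change above 0, with a median of 0.23, and 2 were higher at an unadjusted p under 0.05: sdhaf1 and SCO2, a copper chaperone of complex IV, at 0.39 (edgeR adjusted p = 0.632). Over all genes tested 4.9% were higher and 2.74% lower at that p in edgeR's test. The electron carriers CYC1, the cytochrome c1 of complex III, and cycsb, a cytochrome c, had log2 fold changes of 0.12 and 0.16. The citrate cycle list had a median of 0.04 with 11 of 17 above 0, and 0 genes at an unadjusted p under 0.05, with DLAT, a subunit of pyruvate dehydrogenase, at -0.15. Of 28 glycolysis genes 13 were above 0 and 4 were lower in LIRD at an unadjusted p under 0.05, where 2.74% of all genes were. PFKP, a phosphofructokinase, had 78.28, 92.54 and 101.2 CPM in LIRD and 99.43, 107.7 and 120.3 CPM in CTRL, so all 8 LIRD libraries were below the CTRL median, with a log2 fold change of -0.27 (SE 0.07, edgeR adjusted p = 0.234). PFKM, the muscle form, was at -0.62 (edgeR adjusted p = 0.411). Of 19 regulators of mitochondrial biogenesis 9 were above 0 with a median of -0.02, the lowest p being that of esrrgb, an estrogen-related receptor, at -0.76 (edgeR adjusted p = 0.333), followed by the coactivator pprc1 at -0.24 (edgeR adjusted p = 0.66).

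The cytosolic ribosomal protein genes moved with the respiratory chain genes across LIRD libraries, and less closely across CTRL libraries. Their 82 genes had a median log2 CPM relative to the CTRL mean of 1.39 in LIRD 1, 0.96 in LIRD 2, 0.93 in LIRD 4 and 0.69 in LIRD 9, and of -0.35, -0.81, -0.38 and -0.38 in LIRD 5, 6, 10 and 11. Their summed level was 36177, 72522 and 164978 CPM in LIRD and 43755, 57033 and 99712 CPM in CTRL, with a median log2 fold change of 0.41 and 81 of 82 above 0, 0 of them at an unadjusted p under 0.05. The highest was LIRD 1 and the lowest LIRD 6, and CTRL 10 was the highest of CTRL, as for the respiratory chain. The 75 mitochondrial ribosomal protein genes split likewise, from 0.501 to 0.806 in LIRD 1, 2, 4 and 9 and from -0.472 to -0.288 in the others. Of these 75 genes 74 had a log2 fold change above 0. For both ribosomal lists the share over all genes tested was 53.8%. The assembly factors split too, at 0.438 to 0.766 against -0.349 to -0.253. The LIRD range enclosed that of CTRL for 97.6% of cytosolic ribosomal, 89.3% of mitochondrial ribosomal and 68.5% of assembly factor genes, against 49.5% of all genes tested. TMM factors were low in the libraries with high sums, at 0.84 in LIRD 1 and 0.82 in LIRD 4, and 1.16 in LIRD 6. With total counts in their place the median of the subunit genes was 0.16 and 83 of 96 were above 0, when 35.5% of all genes were. Markers of some other tissues also differed. The lens (6 genes), skin (3), exocrine pancreas (2) and skeletal muscle (9) lists had 0 genes higher in LIRD at an unadjusted p under 0.05. At that p 1 skeletal muscle gene was lower in edgeR's test. Of 6 erythroid genes 5 were higher in LIRD at an unadjusted p under 0.05, with sums of 408, 530 and 1372 CPM in LIRD and 256, 367 and 507 CPM in CTRL, and of 4 liver genes all 4 were, with sums of 2829, 4167 and 8862 CPM in LIRD and 2208, 2647 and 4476 CPM in CTRL, and no marker of either list was at 0. Both lists were highest in LIRD 1 and in CTRL 10, and lowest among LIRD in LIRD 10. Of 14 photoreceptor genes 2 were higher and 3 lower at that p, with sums of 14196, 19937 and 28974 CPM in LIRD and 13987, 22224 and 24871 CPM in CTRL. Over all genes tested 4.9% were higher and 2.74% lower at that p in edgeR's test. Several other marker and pathway sums split the LIRD libraries as the respiratory chain did. Skin markers held 8850 to 13374 CPM in LIRD 1, 2, 4 and 9 and 4413 to 6714 CPM in LIRD 5, 6, 10 and 11. In the same order pigment markers held 798 to 837 against 338 to 613 CPM, and proliferation markers 578 to 775 against 304 to 393 CPM. Liver markers held 4462 to 8862 against 2829 to 3872 CPM, and skeletal muscle markers 4136 to 6308 against 2820 to 3733 CPM. The glycolysis list held 7952 to 10585 against 5181 to 6884 CPM, and the citrate cycle list 2012 to 2598 against 1686 to 1951 CPM. Photoreceptor markers split with a narrow gap, at 19997 to 28974 against 14196 to 19877 CPM. Ganglion markers were lower in LIRD 1, 2 and 4 (668 to 850 CPM) than in the other LIRD libraries (1093 to 1208 CPM). Amacrine and horizontal markers were likewise lower in LIRD 1, 2 and 4, at 799 to 843 CPM against 992 to 1210 CPM. Bipolar, lens, Müller glia, erythroid, exocrine pancreas and biogenesis regulator sums had no such split. The part of all these in the levels of the respiratory chain genes was not tested.

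The comparison was repeated within each library series. In library series 1, with LIRD 1 and 2 against CTRL 1 and 2, 70 of 96 subunit genes passed the threshold as higher, where 10.9% of all genes did, and 80 of 96 were higher at an unadjusted p under 0.05, where 21.3% of all genes were. The median log2 fold change in series 1 was 0.87. In library series 2, with 6 LIRD and 7 CTRL libraries, 0 of 96 passed in edgeR's test, where 0.0178% of all genes did, and 1, COX4I2, was higher at an unadjusted p under 0.05, where 2.85% of all genes were. The series 2 median was 0.01 and 56 of 96 genes were above 0, where 52.8% of all genes were. By complex the series 2 medians were 0.01 for complex I, 0.07 for complex II, -0.03 for complex III, 0.08 for complex IV and -0.01 for complex V. COX4I2 had higher values in LIRD in both, with a log2 fold change of 1.05 in series 1 (edgeR adjusted p = 0.01) and 0.39 in series 2 (unadjusted p = 0.03, adjusted p = 1.0). It was named for its small p over these same libraries, so the 2 series are no separate check of it. The difference between the series was not itself tested. Both LIRD libraries of series 1 belong to those with high sums, and series 2 holds LIRD 4 and 9, which were high, beside LIRD 5, 6, 10 and 11, which were low. Without LIRD 1 the median over the subunit genes was 0.14, and without CTRL 10 it was 0.40, with 0 genes past the threshold in both.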

How the data were processed

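Per the labels and the study's methods, polyA RNA of retina was sequenced as paired-end reads, trimmed with Trimmomatic 0.39, aligned to GRCz11 with STAR and counted on exons with strand by featureCounts. The labels give STAR 2.7.9a and Subread 2.0.1, and the study's methods give other versions of both. The authors deposited raw counts per gene, without normalization. Symbols matched 23499 of 25281 identifiers (93.0%).

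Counts were fitted with edgeR 4.0.16 in R 4.3.3 (TMM factors, filterByExpr, robust quasi-likelihood test, LIRD over CTRL, no covariate), with Benjamini-Hochberg adjustment over 22503 genes. Log2 CPM used a prior count of 2. Paralog ratios used counts plus 0.5 and an exact permutation test over libraries. Of the paralog pairs found by symbol, 5 that join different subunits were left out, and kinases named rps6k were left out of the ribosomal list. The scripts were tested on simulated data.

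Named genes were those with the 3 smallest p-values per complex, preset core subunits, and 2 per pathway list, and any other named gene was chosen after its values were seen. The members and lists were chosen with earlier results of these data known. Alternatives were DESeq2 1.42.0, limma-voom (limma 3.58.1), other scalings and filters, the library series, a replicate block and leaving out each library. Promoter motifs were not analysed here. A few named genes are counted in their lists but not reported singly here, and 1 member is left out of the plot of fold changes. The labels call the libraries biological replicates and name no animals or pools, so p-values measure the spread between the libraries kept.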

Additional observations from a re-analysis of the deposited data

Results flagged for a closer look

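Among the 28 values checked in each of the 2 groups, 3 had a library far from the rest of its group, and all 3 were CTRL 10. Chance alone gives such a gap in about 1 of 20 groups, so 3 flags over 28 values in 2 groups are about what chance gives. The 3 genes are also measured in the same libraries and are not independent of each other. SDHAF4 had 9.42 CPM in CTRL 10 and 4.79 to 6.75 CPM in the other CTRL libraries. COX7A2 (ENSDARG00000110700) had 11.6 CPM in CTRL 10 and 4.37 to 7.58 CPM in the others. ATP5PF had 137 CPM in CTRL 10 and 56.5 to 96.2 CPM in the others. CTRL 10 also held the highest sum of subunit genes and of cytosolic ribosomal protein genes in CTRL.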

How the results depend on the processing

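With all libraries 0 of the 96 subunit genes were called, so there was no call whose direction could turn. The count of the 96 subunit genes past the threshold was 0 in each alternative except library series 1 alone, where it was 70. In that series 80 subunit genes had an unadjusted p under 0.05 (21.3% of all genes were higher at that p), and the median log2 fold changes were 0.85 for complex I, 0.84 for complex II, 0.93 for complex III, 0.87 for complex IV and 0.99 for complex V. Subunit genes with an unadjusted p under 0.05, 1 in all libraries, numbered 2 when the 2 most alike pairs of libraries were added up (chosen after seeing the data), and 1 to 7 with 1 library left out, the 7 without LIRD 6. They numbered 4 without LIRD 10 or CTRL 10, and 2 without LIRD 5 or LIRD 11. With all libraries 4.9% of all genes were higher at that p in edgeR's test. The share over all genes is not given for libraries added up or left out, so these counts are not read as a result.

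Over all genes, those past the threshold and higher (8) numbered 5 with an absolute log2 fold change over 1, 15 with the library series as a covariate, 61 with DESeq2, 2457 in series 1 alone, 4 in series 2 alone, 5 with alike libraries added up, and 6 to 32 with 1 library left out, the 32 without LIRD 10. Those lower (1) numbered 2 with upper-quartile factors, 17 with DESeq2, 3 with limma-voom, 2 with no filter, 2 with at least 10 counts in every library, 2 with the series covariate, 1434 in series 1 alone, 0 in series 2 alone, 0 with alike libraries added up, and 1 to 7 with 1 library left out. The cause was not tested.

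With the replicate number as a block, 0 genes were higher and 0 lower past the threshold. The median over the subunit genes was then 0.16 with 92 of 96 above 0, where 50.5% of all genes were. The 7 shared numbers were not taken as pairs: the correlations of their deviations ran from -0.56 to 0.42, and 1 of 7 LIRD libraries correlated best with its own number. The median was also 0.16 with limma-voom and 0.21 with the series covariate. No pair of libraries agreed within sampling noise, so the planned merging of such pairs was not run, but LIRD 5 with LIRD 11 (1.84 times counting noise) and CTRL 3 with CTRL 11 (3.71 times) were far more alike than any other pair (11.3 times or more). With the counts of each of these pairs added up and used as 1 library, the median over the subunit genes was 0.35 and 0 passed the threshold.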
